A study of Homo sapiens with 12 samples.

Results

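The 8 genes described here encode transcription factors that specify and maintain endoderm of the pancreas and gut: GATA6, GATA4, HNF4A, HNF4G, FOXA1, FOXA2, FOXA3 and PDX1. They were chosen by gene symbol from 48114 genes listed for each of 2 human pancreatic ductal adenocarcinoma lines, and each symbol matched 1 gene. Poly(A) RNA was sequenced from PANC-1, which the study used as a basal-like line, and HPAF-II, which it used as a classical line. PANC-1 cells received a control siRNA (siCtrl), an siRNA against the RNA-binding protein QKI (siQKI) or an siRNA against the RNA-binding protein RBFOX2 (siRBFOX2). Both targeting siRNAs were used at 40 nM, and cells were collected after 48 h of transfection. HPAF-II cells received the control siRNA alone (HPAF-II siCtrl). Each of the 4 groups held 3 libraries, and each line is a single established cell line that may not stand for its tumor subtype. The p-values rest on the spread between libraries within the 3 PANC-1 groups, pooled in one fit and drawn toward a trend over all genes tested.

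These factors act early in the making of the pancreas. GATA factors bind GATA-containing DNA through zinc fingers, and GATA6 is widely used as a marker of classical pancreatic cancer. FOXA factors are pioneer proteins that bind DNA in closed chromatin through a forkhead domain, HNF4 proteins are nuclear receptors that bind direct repeats as dimers, and PDX1 is the homeodomain protein without which no pancreas forms. QKI and RBFOX2 bind RNA, mainly to regulate splicing.

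Values, called normalized counts here, are gene totals that the authors divided by a size factor for each library. Their unit is not a read. Size factors lay between 0.877 and 1.15 in PANC-1 and between 0.810 and 1.09 in HPAF-II, and 24982 to 25892 and 21606 to 24267 genes were above 0. HPAF-II replicate 3 had the most genes above 0 in its line. QKI fell to 19.7% of its siCtrl mean in siQKI cells, and RBFOX2 to 13.6% in siRBFOX2 cells. RBFOX2 was also lower after siQKI (log2 fold change -0.29, adjusted p = 0.0207 from limma), a call lost in 7 of its 18 alternatives. In the RNA of a whole culture, fewer cells expressing a gene and less RNA per cell cannot be told apart.

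A few stretches carry letters that these factors are known to read in the members' own upstream DNA. RefSeq (GRCh38.p14, the hg38 build of the files) gave 5 start sites for 4 of the 8 members (FOXA1, GATA6, FOXA3 and HNF4A). Windows of 300 bases, 250 of them before the start, were searched on both strands for letters that GATA proteins bind (AGATAA or else TGATAA), that FOXA proteins bind (TGTTTAC or else TGTTTGC), that HNF4 proteins bind (CAAAGTCCA) and that make a homeobox core (TAATTA), and no motif overlapped another. The 250 bases before the start are shown for the windows with a match, 5′ to 3′ on the gene's strand and with matches in capitals. They are FOXA1 at chr14:37595250-37595499 (minus strand), the upstream HNF4A start, known as P2, at chr20:44355449-44355698 and the downstream start, P1, at chr20:44400989-44401238 (both plus strand).
FOXA1: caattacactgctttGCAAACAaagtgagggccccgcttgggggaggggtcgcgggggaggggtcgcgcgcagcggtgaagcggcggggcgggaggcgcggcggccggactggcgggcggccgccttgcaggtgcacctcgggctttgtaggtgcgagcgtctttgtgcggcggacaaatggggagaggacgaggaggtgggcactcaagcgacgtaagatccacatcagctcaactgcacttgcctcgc
HNF4A P2: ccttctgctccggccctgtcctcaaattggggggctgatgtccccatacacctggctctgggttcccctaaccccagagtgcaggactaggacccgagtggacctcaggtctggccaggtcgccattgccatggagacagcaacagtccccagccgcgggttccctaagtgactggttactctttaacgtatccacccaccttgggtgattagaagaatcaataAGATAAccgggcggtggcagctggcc
HNF4A P1: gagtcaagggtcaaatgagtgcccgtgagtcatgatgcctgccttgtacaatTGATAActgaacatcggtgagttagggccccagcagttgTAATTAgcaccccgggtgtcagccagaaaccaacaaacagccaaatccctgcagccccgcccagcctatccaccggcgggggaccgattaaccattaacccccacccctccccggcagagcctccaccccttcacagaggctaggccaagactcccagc
The FOXA1 window held 1 FOXA match, on the opposite strand. HNF4A P2 held 1 GATA match, and P1 held 1 GATA match and 1 homeobox match. Of the 35116 RefSeq windows of 300 bases, 16.3% held a GATA match, 7.17% a FOXA match, 4.84% a homeobox match and 0.384% an HNF4 match. The tables give 1 value per gene, so transcripts from P1 and P2 were not measured apart.

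Since the study depleted 2 RNA-binding proteins, the longest coding transcript of each member in GENCODE was also searched for their known RNA motifs, written as DNA: ACTAAC for QKI and TGCATG for RBFOX proteins. GATA6 was the one member with a QKI motif, in its 3′ untranslated region, and FOXA1 and FOXA3 held the RBFOX motifs, in capitals below. The stretches lie at chr18:22201856-22201885 (GATA6, plus strand), chr14:37592358-37592387 (FOXA1 coding sequence, minus strand), chr14:37590171-37590200 (FOXA1 3′ untranslated region, minus strand) and chr19:45873303-45873332 (FOXA3 3′ untranslated region, plus strand).
GATA6 QKI motif: ctgtatagtgtgACTAACccacaggcaggt
FOXA1 coding RBFOX motif: gccatgaacccgTGCATGagccccatggcg
FOXA1 3′ RBFOX motif: atgttaatttatTGCATGgtttattctttt
FOXA3 RBFOX motif: tggctaatccacTGCATGgtttgatggcca
Among transcripts within 20% of the same length, 27.3% held an ACTAAC where GATA6 had 1, and 50.3% held a TGCATG where FOXA1 had 2. For FOXA3, 37.5% of such transcripts held a TGCATG. These matches are letters in annotated transcripts, and binding was not measured.

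Both knockdowns were compared with siCtrl to ask whether loss of a basal-like splicing regulator changes the lineage factors. Of the 8 members, siQKI raised FOXA1 and lowered FOXA2 and GATA4, and siRBFOX2 raised FOXA1 and lowered FOXA2 and HNF4G. Across all 22544 genes tested, 14.9% were higher and 18.1% lower in siQKI cells, and 12% were higher and 14.5% lower in siRBFOX2 cells, with an adjusted p under 0.05 from limma. The count of 1 member higher and 2 lower of 8 in each knockdown is therefore near what any gene showed. Both contrasts use the same siCtrl libraries. With the libraries rescaled by their upper quartiles, 58.0% of the genes called in siQKI cells were higher in place of 45.2%.

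**Figure D1:**
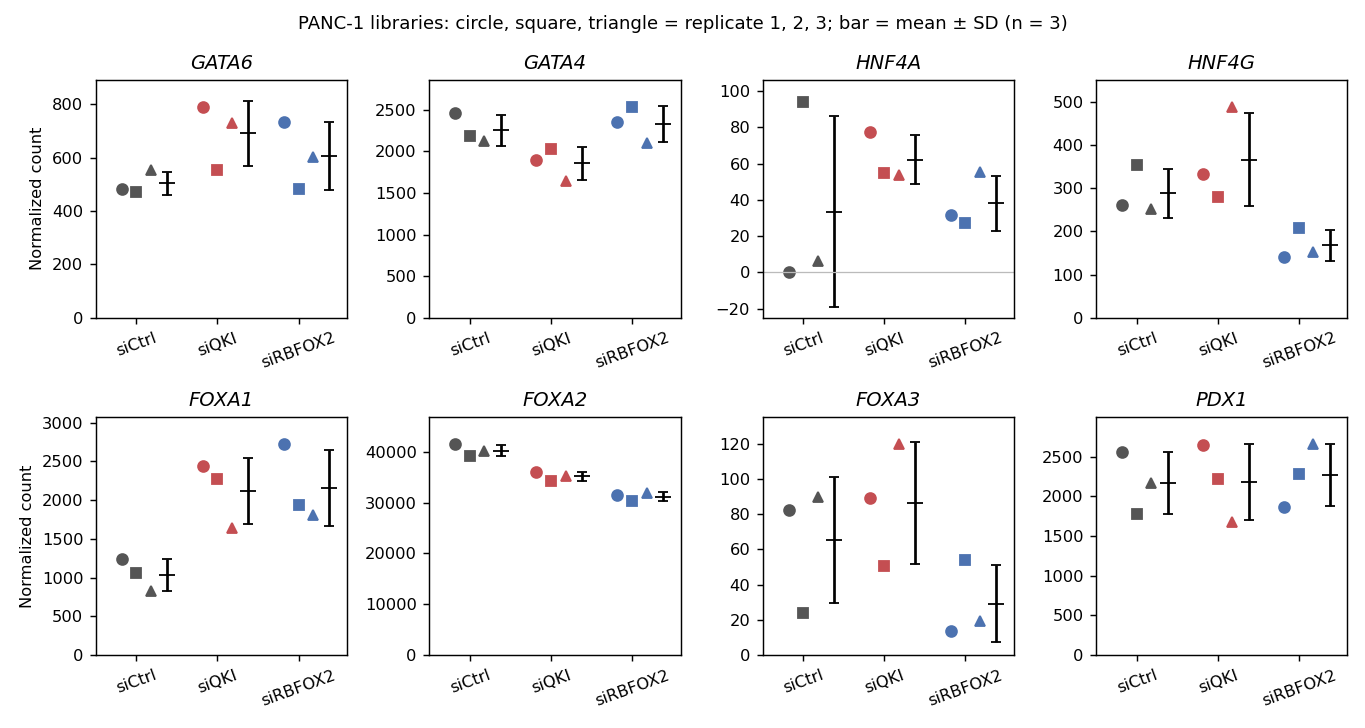
Normalized counts of the 8 members in the 9 PANC-1 libraries (one panel a gene, linear axes), with each replicate as a symbol and the mean ± SD of 3 libraries as a bar. FOXA1 sits at 823 to 1235 in siCtrl libraries and at 1640 to 2719 in both knockdowns, while FOXA2 falls from 39131 to 41441 to lower, narrow ranges.

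Of the members called, FOXA1 changed most in both knockdowns. FOXA1 (GSHG0012816; chromosome 14, 37589552 to 37600040) had 1235, 1060.4 and 823 normalized counts in the siCtrl libraries. It had 2443, 2279.7 and 1639.8 in siQKI and 2719, 1939 and 1809 in siRBFOX2 libraries. All 6 knockdown libraries lay above all 3 siCtrl libraries. It rose 2.04-fold in siQKI cells, a log2 change of 1.03 ± 0.18 (SE; limma, adjusted p = 3.55e-04), and 2.07-fold in siRBFOX2 cells, a log2 change of 1.05 ± 0.18 (SE; limma, adjusted p = 4.59e-04). Both calls were kept in each of the 17 alternative fits. The knockdowns themselves were not told apart, with a log2 difference of -0.02 (95% interval -0.40 to 0.36, adjusted p = 0.957 from limma). TTC6, which starts within the range the files give for FOXA1, had means of 18.9, 42.2 and 52.3 normalized counts in siCtrl, siQKI and siRBFOX2 cells. These are a small part of the FOXA1 values, and TTC6 itself passed no test.

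FOXA2, the forkhead factor with the highest level of the 8 members in PANC-1, moved the other way. FOXA2 (GSHG0027216; chromosome 20, 22580998 to 22585490) had 41441, 39131 and 40146 normalized counts in siCtrl, 35973, 34304 and 35224 in siQKI and 31458, 30265 and 31857 in siRBFOX2 libraries. The 3 groups formed separate, tight bands. Its log2 change was -0.19 ± 0.04 (SE; limma, adjusted p = 0.00122) in siQKI and -0.37 ± 0.04 (SE; limma, adjusted p = 6.96e-06) in siRBFOX2 cells, so that 87.4% and 77.5% of the siCtrl mean remained. FOXA2 was higher in siQKI than in siRBFOX2 cells by 0.17 on the log2 scale (adjusted p = 0.00481 from limma), and all 3 calls were kept in the 17 alternative fits.

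FOXA3, the forkhead member best known from liver, was low in PANC-1. FOXA3 (GSHG0021771; chromosome 19, 45864260 to 45873797) had 82.3, 24.0 and 89.5 normalized counts in siCtrl, 88.9, 50.6 and 119.5 in siQKI and 13.7, 54.2 and 19.5 in siRBFOX2 libraries. Replicate 2 was the lowest library of both siCtrl and siQKI, and the ranges of the 3 groups overlapped. No contrast passed the test (adjusted p = 0.601 for siQKI, 0.222 for siRBFOX2 and 0.0824 between the knockdowns, from limma). Without siRBFOX2 replicate 2 the difference between the knockdowns reached 2.25 on the log2 scale (adjusted p = 0.0291 from limma).

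**Figure D2:**
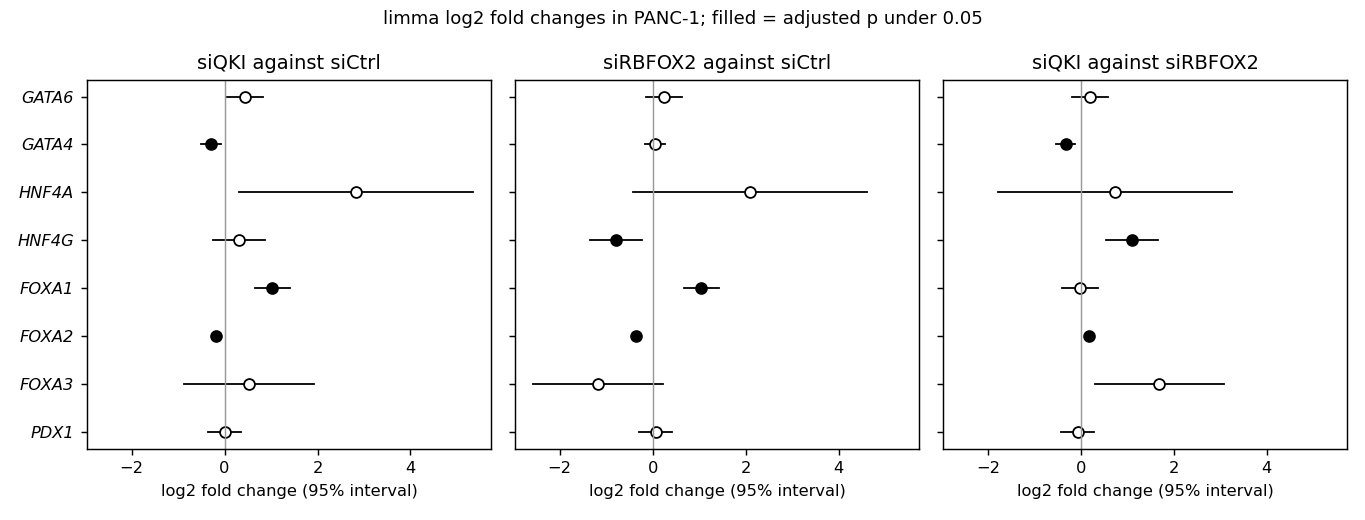
log2 fold changes of the 8 members in the 3 PANC-1 contrasts (x axis), each with its 95% interval from limma as a line and filled where the adjusted p was under 0.05. FOXA1 stands at 1.03 and 1.05 in the knockdowns, HNF4A has the widest intervals, and HNF4G has the largest called difference between the knockdowns, at 1.11.

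The GATA pair was held mainly by GATA4 in PANC-1. GATA4, a factor of early foregut and heart (GSHG0048677; chromosome 8, 11676935 to 11760002), had 2463, 2179.8 and 2119 normalized counts in siCtrl, 1898, 2023 and 1644 in siQKI and 2359, 2532 and 2096 in siRBFOX2 libraries. All 3 siQKI libraries lay below the other 6. The log2 fold change was -0.28 in siQKI (standard error 0.10, adjusted p = 0.0416 from limma) and 0.05 in siRBFOX2 cells (adjusted p = 0.795 from limma), and the knockdowns differed by -0.33 (standard error 0.10, adjusted p = 0.0285 from limma). The siQKI call was kept in 10 of the 17 alternative fits (adjusted p from 0.0214 to 0.187). It was lost without siCtrl replicate 1 (0.163), siCtrl replicate 2 (0.0637), siQKI replicate 1 (0.0646), siQKI replicate 3 (0.187) or siRBFOX2 replicate 1 (adjusted p = 0.0518, all from limma), and also with upper-quartile rescaling (log2 fold change -0.22) and without the mean-variance trend (adjusted p = 0.102 from limma). The difference between the knockdowns was kept in 12 of the 17, and was lost without either siQKI replicate 1 (0.0508) or 3 (0.137) and without either siRBFOX2 replicate 1 (0.0775) or 2 (0.108) and without the trend (adjusted p = 0.0935, all from limma).

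GATA6, the classical marker, did not pass the test in PANC-1. GATA6 (GSHG0020267; chromosome 18, 22169443 to 22202528) had 483, 473 and 554.4 normalized counts in siCtrl, 789, 553.8 and 731 in siQKI and 735, 482 and 601 in siRBFOX2 libraries. Replicate 2 of each knockdown lay within the siCtrl range and the other libraries lay above it. The log2 fold change was 0.44 in siQKI (95% interval 0.06 to 0.83, adjusted p = 0.0755 from limma) and 0.25 in siRBFOX2 cells (95% interval -0.14 to 0.64, adjusted p = 0.361 from limma). The siQKI value passed the threshold with upper-quartile rescaling (log2 fold change 0.51, adjusted p = 0.0440) and without siQKI replicate 2 (log2 fold change 0.60, adjusted p = 0.0307, both from limma).

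Between the knockdowns, HNF4G had the largest difference of the members called. HNF4G, the HNF4 paralog of gut and pancreas (GSHG0041785; chromosome 8, 75407649 to 75566810), had 260.4, 354 and 252 normalized counts in siCtrl, 332, 279 and 488 in siQKI and 141, 208 and 153 in siRBFOX2 libraries. The 3 siRBFOX2 libraries lay below the other 6, and the siQKI and siCtrl ranges overlapped. HNF4G fell by 0.79 on the log2 scale in siRBFOX2 cells (standard error 0.26, adjusted p = 0.0375 from limma), was not called after siQKI (0.32, adjusted p = 0.400) and was 1.11 higher in siQKI than in siRBFOX2 cells (standard error 0.26, adjusted p = 0.00645 from limma). The difference between the knockdowns was kept in all 17 alternative fits, and the fall in siRBFOX2 cells in 10. That fall was lost without siCtrl replicate 1 (0.0557), 2 (0.150) or 3 (0.0511) and without siRBFOX2 replicate 1 (0.118) or 3 (0.0920), without the trend (0.0759) and without the filter on low values (adjusted p = 0.0591, all from limma). Between siQKI and siRBFOX2 cells, 9.93% of all genes tested were higher and 11.6% lower, against 2 members higher (HNF4G and FOXA2) and 1 lower (GATA4) of the 8.

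HNF4A, a nuclear receptor of liver, gut and pancreas, was near 0 in PANC-1. HNF4A (GSHG0026843; chromosome 20, 44355699 to 44434596) had 0, 93.9 and 6.04 normalized counts in siCtrl, 77.5, 54.9 and 53.5 in siQKI and 31.5, 27.1 and 55.6 in siRBFOX2 libraries. A single siCtrl library, replicate 2, held nearly all of the siCtrl counts and exceeded every knockdown library. The log2 fold changes were 2.83 (standard error 1.18, adjusted p = 0.0806 from limma) and 2.09 (standard error 1.18, adjusted p = 0.225 from limma), and rest on how values near 0 are treated, as the means were 186% and 114% of the siCtrl mean. Without siCtrl replicate 2 they were 4.55 (adjusted p = 0.00185) and 3.81 (adjusted p = 0.00857, both from limma).

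PDX1, the homeodomain factor of the pancreatic bud, was level across the PANC-1 groups within its spread. PDX1 (GSHG0010944; chromosome 13, 27920000 to 27926313) had 2566, 1777 and 2166 normalized counts in siCtrl, 2643, 2225 and 1679.7 in siQKI and 1869, 2284 and 2655 in siRBFOX2 libraries. The 3 ranges covered nearly the same span. The 95% interval of the log2 fold change ran from -0.35 to 0.35 after siQKI (adjusted p = 0.9999 from limma) and from -0.29 to 0.42 in siRBFOX2 cells (adjusted p = 0.821 from limma).

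The 2 lines differed far more than the knockdowns. As their tables were normalized apart, libraries were scaled to sum to 1000000 (rescaled counts) and the lines were described without a test. HPAF-II had more RNA of GATA6, HNF4A, HNF4G, FOXA1 and FOXA3 by at least 2-fold, less of FOXA2, and none listed for GATA4. Among the 24673 genes compared, 27.2% were at least 2-fold higher and 25.2% at least 2-fold lower in HPAF-II, against 5 and 2 of the 8 members. The libraries of the lines did not overlap for any member, as for 63.7% of all genes compared. The median log2 ratio was 4.14 over the members and 0.08 over all genes. Using the deposited values without rescaling shifted the median of all genes to -0.19, with 5635 genes higher and 7351 lower, and changed no member's direction.

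**Figure D3:**
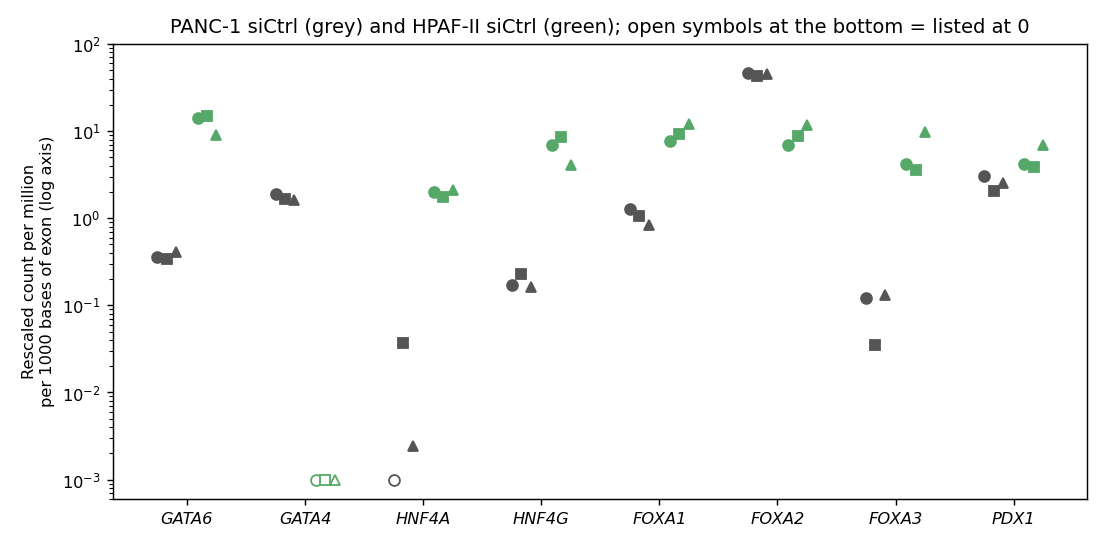
Rescaled counts (of a library total of 1000000) per 1000 bases of exon (log axis) for the 8 members in the 3 PANC-1 siCtrl libraries (grey) and the 3 HPAF-II siCtrl libraries (green), with open symbols for libraries listed at 0. GATA6 rises from 0.371 in PANC-1 to 12.7 in HPAF-II on average, FOXA2 falls from 44.9 to 9.16, and GATA4 is at 0 in HPAF-II.

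The GATA pair switched between the lines. GATA6 had 56.4, 58.3 and 35.7 rescaled counts in the HPAF-II libraries against 1.43, 1.36 and 1.61 in siCtrl PANC-1 cells, a log2 ratio of 5.09 (34.0-fold). GATA4 had 7.27, 6.26 and 6.14 rescaled counts in PANC-1 and was listed at 0 in all 3 HPAF-II libraries. GATA6 alone therefore made up the GATA6 and GATA4 total in HPAF-II, whereas per 1000 bases of exon it made up 17.7% ± 2.15 (SD, n = 3) of it in siCtrl, 26.4% ± 4.91 in siQKI and 20.04% ± 4.02 in siRBFOX2 cells. The lowest siQKI share, 20.8%, lay above the highest siCtrl share, 20.1%.

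Both HNF4 genes were high in HPAF-II. HNF4A had 14.6, 12.7 and 15.4 rescaled counts in HPAF-II, against 0, 0.270 and 0.0175 in PANC-1 siCtrl cells. The log2 ratio of 7.07 rests on siCtrl replicate 2, without which it was 9.57. HNF4G had 30.8, 37.7 and 18.3 rescaled counts in HPAF-II and 0.768, 1.02 and 0.728 in PANC-1, a log2 ratio of 5.09 (34.1-fold). HNF4G was the larger part of the pair in all 12 libraries, and HNF4A made up 24.7% ± 8.68 (SD, n = 3) of the pair per 1000 bases in HPAF-II. In PANC-1 the HNF4A share was 5.19% ± 7.76 in siCtrl, 9.94% ± 3.23 in siQKI and 12.7% ± 5.47 in siRBFOX2 cells, and the ranges overlapped. The siCtrl share rests on replicate 2, without which it was 0.731%.

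The FOXA family was spread over 3 genes in HPAF-II and held by 1 in PANC-1. FOXA1 had 22.0, 26.2 and 34.4 rescaled counts in HPAF-II against 3.64, 3.05 and 2.38 in PANC-1 (log2 ratio 3.18, 9.07-fold). FOXA3 had 8.45, 7.13 and 19.7 against 0.243, 0.0689 and 0.259 (log2 ratio 5.87, 58.7-fold), with replicate 3 of HPAF-II well above the others. FOXA2 had 18.1, 22.8 and 30.6 against 122.3, 112.4 and 116.3, so that it was 4.90-fold lower in HPAF-II. Per 1000 bases, FOXA2 made up 97.5% ± 0.387 (SD, n = 3) of the family in siCtrl, 94.5% ± 0.884 in siQKI, 94.0% ± 1.21 in siRBFOX2 and 37.5% ± 3.00 in HPAF-II cells. The FOXA1 share was 2.29% ± 0.416, 5.18% ± 0.982, 5.90% ± 1.24 and 39.6% ± 3.52 in the same order. All 6 knockdown libraries had a FOXA1 share above the siCtrl libraries and far below HPAF-II.

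**Figure D4:**
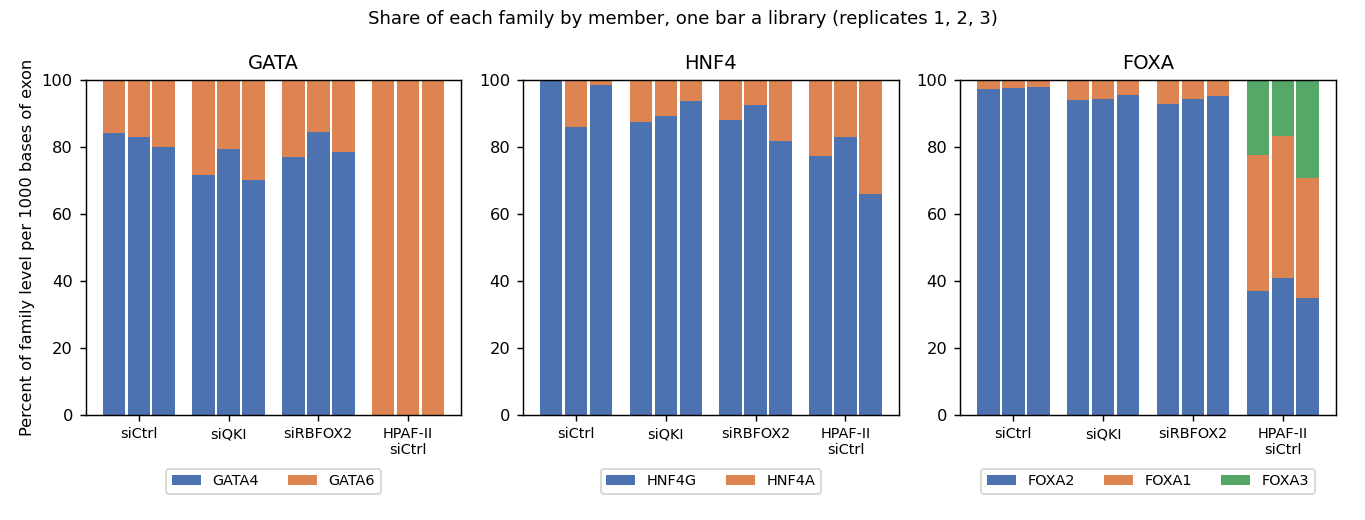
Share of the GATA, HNF4 and FOXA family level (percent, per 1000 bases of exon) held by each member, 1 bar a library in the order of replicates 1, 2 and 3. GATA6 fills the GATA bars of HPAF-II and averages 17.7% in PANC-1 siCtrl, and FOXA2 fills 97.5% of the FOXA bars in PANC-1 siCtrl and 37.5% in HPAF-II.

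PDX1 differed least between the lines. It had 10.6, 9.68 and 17.3 rescaled counts in HPAF-II and 7.57, 5.10 and 6.27 in PANC-1 siCtrl cells. The ranges were apart, and the log2 ratio of 0.98 (1.98-fold) lay just under the 2-fold limit. It was 0.68 without HPAF-II replicate 3, and passed the limit without HPAF-II replicate 1 (1.09), HPAF-II replicate 2 (1.14) or siCtrl replicate 1 (1.14). HPAF-II replicate 3 was also the lowest HPAF-II library for GATA6 and HNF4G and the highest for FOXA1, FOXA2, FOXA3 and PDX1.

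Within a line, the members were ranked per 1000 bases of exon. In PANC-1 siCtrl cells the order was FOXA2 (44.9 rescaled counts per 1000 bases), PDX1 (2.53), GATA4 (1.73), FOXA1 (1.06), GATA6 (0.371), HNF4G (0.188), FOXA3 (0.0957) and HNF4A (0.0133). Of all neighbors in this order, only FOXA3 and HNF4A had overlapping libraries. In HPAF-II the order was GATA6 (12.7), FOXA1 (9.62), FOXA2 (9.16), HNF4G (6.49), FOXA3 (5.91), PDX1 (5.00), HNF4A (1.97) and GATA4 (0). Here each of the first 5 overlapped with the next, down to PDX1, so the order of these neighbors was not resolved. Some genes further apart in the order did separate. GATA6 (lowest library 9.04) lay above HNF4G (highest 8.46) and PDX1 (highest 6.90). FOXA1 and FOXA2 (lowest 7.69 and 6.96) also lay above PDX1. In both knockdowns FOXA1 passed GATA4 in mean level to the place after PDX1, and its libraries overlapped those of PDX1. They were apart from those of GATA4 in siQKI cells and overlapped them in siRBFOX2 cells, where the order of FOXA1 and GATA4 was not resolved.

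Partner factors of the same network were examined from a list of 24 genes. In siQKI cells 5 of the 16 tested were higher and 1 lower, with a median log2 fold change of 0.48 against 0.03 over all genes tested. Of all genes tested, 14.9% were higher and 18.1% lower in siQKI cells, and 12% and 14.5% in siRBFOX2 cells. For siQKI against siRBFOX2 these shares were 9.93% and 11.6%. ELF3, an epithelial ETS factor, rose by 0.58 (adjusted p = 0.00122), ONECUT3 by 0.53 (adjusted p = 3.22e-06), PAX6 by 1.03 (adjusted p = 6.77e-04), CDX2 by 0.38 (adjusted p = 0.0336) and MNX1 by 0.43 (adjusted p = 0.0494, all from limma). The MNX1 call was lost in 12 of its 18 alternatives and the CDX2 call in 5. SOX9, the factor of ductal progenitors, fell by 0.46 (adjusted p = 2.57e-06 from limma). In siRBFOX2 cells PAX6 rose by 0.99 (adjusted p = 0.00138) and SOX9 fell by 0.36 (adjusted p = 4.98e-05, both from limma), and no other partner was called. ELF3 and ONECUT3 were higher in siQKI than in siRBFOX2 cells, by 0.38 (adjusted p = 0.0280) and 0.54 (adjusted p = 6.33e-06, both from limma), and the ELF3 difference was lost in 5 of its 18 alternatives.

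Between the lines, 10 of 19 partner factors were at least 2-fold higher in HPAF-II and 5 at least 2-fold lower. The shares over all genes compared were 27.2% and 25.2%. EHF and ELF3, epithelial ETS factors, reached 290.1 ± 67.9 and 251.7 ± 16.1 rescaled counts in HPAF-II (SD, n = 3) against 0.135 and 3.29 in PANC-1 siCtrl cells, and KLF5 reached 442.6 ± 189.9 against 0.882. ISL1, CDX2, MNX1, PROX1 and ONECUT2 were higher as well, by 6.05, 2.59, 2.20, 4.54 and 3.12 on the log2 scale. NKX6-1 and PAX6 were lower in HPAF-II, by log2 ratios of -3.01 and -3.82, while SOX9 was alike in mean (315.2 against 313.2). ONECUT1 had a log2 ratio of -1.02 with overlapping libraries, and SOX17 and NEUROG3 were under 0.1 rescaled counts in both lines. LINC00261, the noncoding neighbor of FOXA2, was also lower in HPAF-II (0.382 ± 0.0273 against 9.64, log2 ratio -4.62) and was called in neither knockdown. The noncoding PLUT beside PDX1 and GATA6-AS1 stayed below 0.3 rescaled counts in every group mean.

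Genes that these factors are known to activate in endoderm were given by a list of 33 found in the files. Only 16 passed the filter on low values in PANC-1, and siQKI changed VTN (log2 fold change 1.56, adjusted p = 0.00701 from limma) and F2, which was lower. F2 was also the 1 gene lower in siRBFOX2 cells, where no gene of the list was called higher. Among all genes tested, 14.9% were higher and 18.1% lower in siQKI cells, and 12% and 14.5% in siRBFOX2 cells. Between the lines, 16 of 26 were at least 2-fold higher in HPAF-II and 8 lower, with a median log2 ratio of 2.55. Among all genes compared, 27.2% were at least 2-fold higher and 25.2% at least 2-fold lower, with a median of 0.08. TM4SF4 had 313.9 ± 67.6 and CYP3A5 20.7 ± 2.50 rescaled counts in HPAF-II against 0.0570 and 0.00957 in PANC-1 siCtrl cells. MUC13 had 89.6 ± 26.5 in HPAF-II and was listed at 0 in the PANC-1 siCtrl libraries. VTN, raised by siQKI, was among the genes lower in HPAF-II (0.0638 against 0.338 rescaled counts, log2 ratio -2.24). Both VTN levels are near 0, and its ratio ran from -5.12 to -1.72 with single replicates left out.

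Cofactors that GATA, FOXA and HNF4 proteins are known to recruit were taken from a list of 15. Of 15 tested, 9 were higher and 0 lower in siQKI cells, and 5 were higher and 1 (TLE1) lower in siRBFOX2 cells, with a median of 0.19 and 0.11 on the log2 scale. Over all genes tested, 14.9% were higher and 18.1% lower in siQKI and 12% and 14.5% in siRBFOX2 cells, with medians of 0.03 and 0.01. ZFPM1, a GATA cofactor, rose by 0.69 in siQKI cells (limma; adjusted p = 7.00e-04), and TLE1, a corepressor, fell by 0.23 in siRBFOX2 cells (adjusted p = 0.00334 from limma). PPARGC1A was 2.24 lower on the log2 scale in siQKI than in siRBFOX2 cells (adjusted p = 0.0355 from limma), from means of 0.0524 and 0.250 rescaled counts, a call lost in 7 of its 17 alternatives.

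Of 20 tested relatives in the GATA and forkhead families, 2 were higher and 7 lower in each knockdown. The shares over all genes tested were 14.9% higher and 18.1% lower in siQKI, and 12% and 14.5% in siRBFOX2 cells. GATA3 rose by 0.60 in siRBFOX2 cells (adjusted p = 0.00154) and GATA5 by 0.22 in siQKI cells (adjusted p = 0.0150, both from limma), the GATA5 call being lost in 3 of its 18 alternatives. FOXD1 fell by 0.36 in siQKI cells (adjusted p = 0.00679) and by 0.33 in siRBFOX2 cells (adjusted p = 0.0142, both from limma), calls lost in 1 and 5 of 18 alternatives. FOXN3 rose by 0.90 in cells with siQKI (adjusted p = 3.18e-06) and by 0.28 in siRBFOX2 cells (adjusted p = 0.0361, both from limma), the second lost in 7 of its 18 alternatives. FOXJ1, the factor of motile cilia, fell by 3.90 in siRBFOX2 cells (adjusted p = 6.96e-05 from limma). Like GATA4, GATA5 was listed at 0 in HPAF-II, against 13.5 rescaled counts in PANC-1 siCtrl cells. FOXC2 and FOXD1 were lower in HPAF-II by log2 ratios of -11.12 and -8.93. The size of the FOXC2 ratio depends on the 0.01 added before taking logs, as its HPAF-II mean was 0.00588 rescaled counts. Of the 10 tested nuclear receptors that share the HNF4 type of site, 2 were higher and 3 lower in siQKI cells, beside 14.9% and 18.1% of all genes. PPARA rose by 0.48 (adjusted p = 3.07e-04) and PPARG fell by 0.49 (adjusted p = 8.57e-07, both from limma), and PPARA was also higher in HPAF-II, by a log2 ratio of 1.67.

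As a description, the genes with the most similar log2 profile over the 9 PANC-1 libraries were sought among 15250 genes with a symbol and a mean of at least 50. These 9 points share 3 treatments and are not independent. The closest to FOXA1 were CELSR2 (Pearson r = 0.98), SH3PXD2B (0.96) and ZBTB1 (0.96), and the closest to FOXA2 were NFYC, SNRPD3 and RBM42 (0.99, 0.98 and 0.98). For HNF4G they were TRIOBP (0.97), RAD51B (0.95) and PTPDC1 (0.94), for GATA4 ZMIZ2 (0.97), SLC7A6 (0.96) and WDFY1 (0.95), and for GATA6 ZNF189 (0.93), CDK20 (0.93) and RHOBTB1 (0.91). FOXA3 was closest to TENT4A (0.95), MDM4 (0.93) and CEP97 (0.92), and PDX1 to LOC729737 (0.90), NEURL3 (0.88) and HAS2 (0.87). Among the members, the highest r was 0.70 (HNF4G and FOXA3) and the lowest -0.76 (FOXA1 and FOXA2).

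The labelled cell type was checked with marker lists. Epithelial and ductal markers summed to 2550 to 2643 rescaled counts in siCtrl, 2558 to 2715 in siQKI, 2133 to 2289.8 in siRBFOX2 and 10943 to 11850 in HPAF-II cells, with 6 of 7 above 0 in siCtrl and HPAF-II cells and CFTR at 0 there. EPCAM and CDH1 reached medians of 455 and 206.7 in HPAF-II against 13.8 and 2.86 in PANC-1 siCtrl cells. CDH1 lay at 2.80 to 2.94 in siCtrl, 6.94 to 9.08 in siQKI and 3.95 to 4.77 in siRBFOX2 libraries. The keratins, at far higher levels, did not follow CDH1 in both knockdowns. KRT18 lay at 817 to 897 in siCtrl, 758 to 806 in siQKI and 678 to 736 in siRBFOX2 libraries. In the same order KRT8 lay at 1222 to 1260, 1282 to 1371 and 1042 to 1145. KRT19 lay at 452 to 465, 476 to 510 and 390 to 421. Of the 6 markers of this list tested, 1 was higher and 1 lower in siQKI cells, and 1 higher and 3 lower in siRBFOX2 cells. All genes tested gave 14.9% and 18.1% in siQKI, and 12% and 14.5% in siRBFOX2 cells. Acinar markers summed to at most 1.59 in any library, with PNLIP and CPB1 at 0 throughout. In HPAF-II libraries CELA3A lay at 0.281 to 0.423 and AMY2A at 0.107 to 1.16, and PRSS1 reached at most 0.479. The hormones INS, GCG, SST and IAPP were at 0 in all 12 libraries, and PPY reached at most 0.0638. Endocrine markers summed to 4.57 to 6.91 in PANC-1, nearly all of it SYP, and to at most 0.0484 in HPAF-II. Fibroblast markers summed to 12.1 to 13.9 in siCtrl, 25.9 to 29.3 in siQKI, 15.4 to 23.2 in siRBFOX2 and 19.1 to 23.3 in HPAF-II cells, mostly COL1A1, with DCN at 0 in PANC-1. Of the 3 tested, 2 were higher in both knockdowns, as FOXA1 was, and their part in that result was not tested. The share higher over all genes tested was 14.9% in siQKI and 12% in siRBFOX2 cells. Immune and endothelial markers summed to 144 to 167 in siCtrl, 116 to 118 in siQKI, 126 to 133 in siRBFOX2 and 1151 to 1239.6 in HPAF-II cells. Nearly all of the PANC-1 sums was CD68 alone (143.8 to 167.3 in siCtrl, 115.8 to 118.0 in siQKI and 125.9 to 133.2 in siRBFOX2 libraries). The HPAF-II sum was mainly LYZ, and PTPRC, which marks leukocytes, was at 0 there.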

How the data were processed

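RNA-seq libraries (3 for each of 4 groups) were made from poly(A) RNA and sequenced in pairs by the authors. Submitters' notes name STAR 2.7.5a, SAMtools, Picard, FastQC and build hg38, and genes are those of FAST DB. The deposited values are a signal, namely gene totals scaled by the authors with DESeq2 size factors, in a table for each line. Low values were multiples of 3 steps for 82.1% to 84.8% of genes, so a step is not a read and depth in reads is unknown; intervals and floors from counts were not computed. No count test was used.

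PANC-1 values were tested with limma 3.58.1 (R 4.3.3) on log2(value + 1) over 22544 genes (mean of 10 or more), in one fit of siCtrl, siQKI and siRBFOX2 with a mean-variance trend, Benjamini-Hochberg adjustment over all tested genes and a threshold of 0.05. Fold changes are on that log2 scale, where those of low genes depend on the added 1 and on single libraries near 0. The test was checked on simulated data. Between lines, each library was rescaled to 1000000, and log2 ratios of means used a pseudocount of 0.01, with no test. Levels per 1000 bases used merged GENCODE exon lengths.

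Members and lists were chosen with earlier results of these data known. Named genes were the members, the 2 targets, partner factors and noncoding neighbors called in PANC-1 or 2-fold apart between lines, of each other list the 3 largest line ratios (at least 1 rescaled count) and genes called with at least 1.5-fold change, and the 3 genes most like each member. Some genes of the lists are counted but not reported here by name. COL1A1, EPCAM, CDH1, SYP, LYZ, F2 and TTC6 lie outside this rule and were named after values were seen, as was the ACTAAC and TGCATG search. The same holds for the other markers named singly: CFTR, KRT8, KRT18, KRT19, PNLIP, CPB1, CELA3A, AMY2A, PRSS1, INS, GCG, SST, IAPP, PPY, DCN, PTPRC and CD68. Same-numbered replicates did not deviate together (r from -0.0325 to 0.0235), so numbers were not taken as pairs. Alternatives were other pseudocounts and filters, upper-quartile rescaling, fits of 2 groups, no trend, a replicate block and each replicate left out. For genes other than the members, counts of lost calls also include a stricter threshold of 0.01 applied to the main fit. A call with an adjusted p above 0.01 is lost there by definition, so these counts are not on the members' scale.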

Additional observations from a re-analysis of the deposited data

How the results depend on the processing

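The rise of FOXA1 and the fall of FOXA2 in both knockdowns, and the HNF4G and FOXA2 differences between the knockdowns, kept direction and call in each of 17 alternative fits. The number of members called ranged from 2 to 4 in siQKI, from 2 to 3 in siRBFOX2 and from 2 to 3 between the knockdowns when single replicates were left out. In 7 of 8 members the lines stayed at least 2-fold apart under each scaling, and leaving out replicates gave 7 to 8. Signs turned only for values that passed no test. The FOXA1 difference between the knockdowns was 0.0095 with upper-quartile rescaling and -0.14 to 0.16 when single replicates were left out. With single replicates left out, PDX1 ranged from -0.15 to 0.18 (siQKI), -0.070 to 0.20 (siRBFOX2) and -0.22 to 0.11 (between knockdowns), GATA4 from -0.017 to 0.12 (siRBFOX2) and FOXA3 from -0.076 to 0.86 (siQKI). Without division by length the HNF4A share of the HNF4 pair was 15.1% in siQKI, 18.8% in siRBFOX2 and 34.3% in HPAF-II cells. HNF4A has the longer merged exons, 7206 bases against 4456 for HNF4G. With a pseudocount of 1 the log2 line ratios were nearer 0, at 4.38 for GATA6, 4.02 for HNF4G, 3.79 for HNF4A and 3.42 for FOXA3. PDX1 was the member that came to be 2-fold apart when a replicate was left out.

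With the replicate number as a block, 4 members were called in siQKI cells in place of 3, as GATA6 reached an adjusted p of 0.0464 (limma), and 3 each in the other contrasts, with 7336 genes called in place of 7432. No other member's call changed. Precision is limited by 3 libraries a group and, for HNF4A and FOXA3 in PANC-1, by values near 0.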
